A study of Homo sapiens with 6 samples.

Results

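The 32 genes described here are the 25 human selenoprotein genes, 6 genes of the machinery that makes and inserts selenocysteine, and SELENBP1, of 62252 genes with a quantified transcript. The selenoprotein and machinery genes were listed by function. SELENBP1 was selected on its fold change between the groups, so its gene level is given as a description with no test. RNA came from K562 cells, a human erythroid leukemia line, transduced with lentiviral pLKO.1 particles that carried a short hairpin RNA against luciferase (shCtrl) or against PCBP1 (shPCBP1). PCBP1, an RNA-binding protein with a preference for C-rich sequence, is also a cytosolic iron chaperone, and the comparison asks how the transcriptome depends on it. Both groups received 8 µg/mL polybrene overnight and 3 µg/mL puromycin for 4 days. Each group held 3 poly-A libraries made with a single hairpin, and no untransduced group was analysed here. The labels do not say whether the libraries of a group came from separate cultures, so the p-values measure the spread between these libraries, which may be technical.

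Selenocysteine (Sec) is a cysteine analogue with selenium in place of sulfur, and it is encoded by UGA, normally a stop codon. A hairpin in the 3' untranslated region of selenoprotein mRNAs, the SECIS element, is bound by SECISBP2, which with the elongation factor EEFSEC directs a dedicated tRNA to the UGA. Selenoproteins include the peroxidase GPX4, which removes lipid hydroperoxides and so restrains ferroptosis, an iron-dependent cell death, and the thioredoxin reductases, which keep thioredoxin reduced. In erythroid cells these enzymes act beside a large flux of iron and heme. SELENBP1 binds selenium but holds no Sec codon, and it oxidizes methanethiol.

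The Sec codons of the 9 selenoprotein genes that passed the gene test are shown because their place in the coding sequence differs between members. Each line gives 30 bases of the spliced transcript, 5' to 3', with 12 bases before the Sec codon and 15 after it, from GENCODE release 44 on GRCh38. Capitals mark the Sec codon, written TGA.
GPX4-210: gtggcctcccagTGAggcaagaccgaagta
TXNRD1-201: caggctggctgcTGAggttaagccccagtg
TXNRD2-204: gtgacaggctgcTGAgggtaagcgccatcc
TXNRD3-204: cagaaaggctgcTGAggctaggcctgctgc
SELENOO-201: ctgtgcgtgacaTGAtcttcgtaacggcct
SELENOS-203: tcatctggcggaTGAggctaagaatcttgt
SELENOT-202: atttgtgtttccTGAggttataggcgggtg
SELENOH-204: cattgcactagcTGAcgcgtctatgggcgc
SEPHS2-201: ggcatgaagggcTGAggctgcaaggtcccg
In TXNRD1, TXNRD2, TXNRD3 and SELENOS only 1 codon lies between the Sec codon and the ordinary stop, and in SELENOO 2 codons do. In the other 4 transcripts the Sec codon lies far upstream of the stop, at codon 46 of 170 in GPX4-210, codon 49 of 195 in SELENOT-202, codon 44 of 122 in SELENOH-204 and codon 60 of 448 in SEPHS2-201. On the genome the GPX4 codon lies at chr19:1105403-1105405 on the plus strand and the SELENOT codon at chr3:150622392-150622394 on the plus strand. Grouped in this way after the values had been seen, 7 selenoprotein genes with an adjusted p have the Sec codon within 10 codons of the stop, of which 1 rose, 4 fell and 2 were not called. Of the 11 others, 3 rose, 1 fell and 7 were not called, beside 17.7% of all genes tested that rose and 13.5% that fell. SELENOP, among the 7 not called, stands there only because its distance to the stop was not determined. The falls of TXNRD1 and TXNRD2 were not called when transcript length entered the fit as an offset (DESeq2 adjusted p 0.344 and 0.198).

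Libraries held between 67066747 and 140522444 estimated counts, and the 2 deepest were both shCtrl. Within each group, every pair of libraries differed beyond counting noise (chi-square over its degrees of freedom 6.48 to 16.4). Each library counted as a sample, although this spread does not show that the cultures were separate. The targeted gene PCBP1 averaged 38925 ± 1454 normalized counts (SD, n = 3) in shCtrl and 7041 ± 362 in shPCBP1. Erythroid markers were high in both groups, with a summed level of 28827 to 34637 TPM in shCtrl and 32991 to 34413 TPM in shPCBP1 over 9 genes. TPM is a relative abundance per transcript length with the same sum in every library.

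Most selenoprotein and machinery genes that could be tested moved little. A gene was called changed at an adjusted p under 0.05 over all genes (DESeq2 Wald test with Benjamini-Hochberg adjustment). Of the 31 genes other than SELENBP1, 28 entered the fit and 24 received an adjusted p. Of these 24, 11 were called changed, beside 31.2% of all 17095 genes with an adjusted p. The 6 that rose were SELENOT, SELENOS, SELENOH, SEPHS2, SECISBP2 and SCLY, beside 17.7% of all genes. The 5 that fell were GPX4, TXNRD1, TXNRD2, TXNRD3 and SELENOO, beside 13.5% of all genes. The changes of these 11 genes ran from 7.64% to 48.4% of the shCtrl level, and without TXNRD3 none exceeded 26.6%. The study's fuller rule also asks for a log2 fold change above 1 in size and more than 10 normalized counts on average, and it took 0 of the 24 and 1.37% of all genes. The 3 libraries of each group did not overlap in normalized count for 15 of the 24, beside 44.2% of all genes. The median log2 fold change was 0.05 over the 18 selenoprotein genes with an adjusted p and 0.12 over the 6 machinery genes, beside 0.0019 over all genes.

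Per length, GPX4 was the most abundant member, SELENOF the next and TXNRD1 the third. The summed level of the 25 selenoprotein genes was 1059, 1097 and 1068 TPM in shCtrl against 1056, 1067 and 1065 TPM in shPCBP1, so the groups overlapped. Within that sum the share of GPX4 was 29.4% ± 0.197 (SD, n = 3) in shCtrl and 25.3% ± 0.291 in shPCBP1. The summed level of the 6 machinery genes was 98.1, 95 and 95.1 TPM in shCtrl against 109.5, 104 and 109.6 TPM in shPCBP1, with no overlap. These sums were not tested, and because TPM is relative they do not give RNA per cell.

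**Figure D1:**
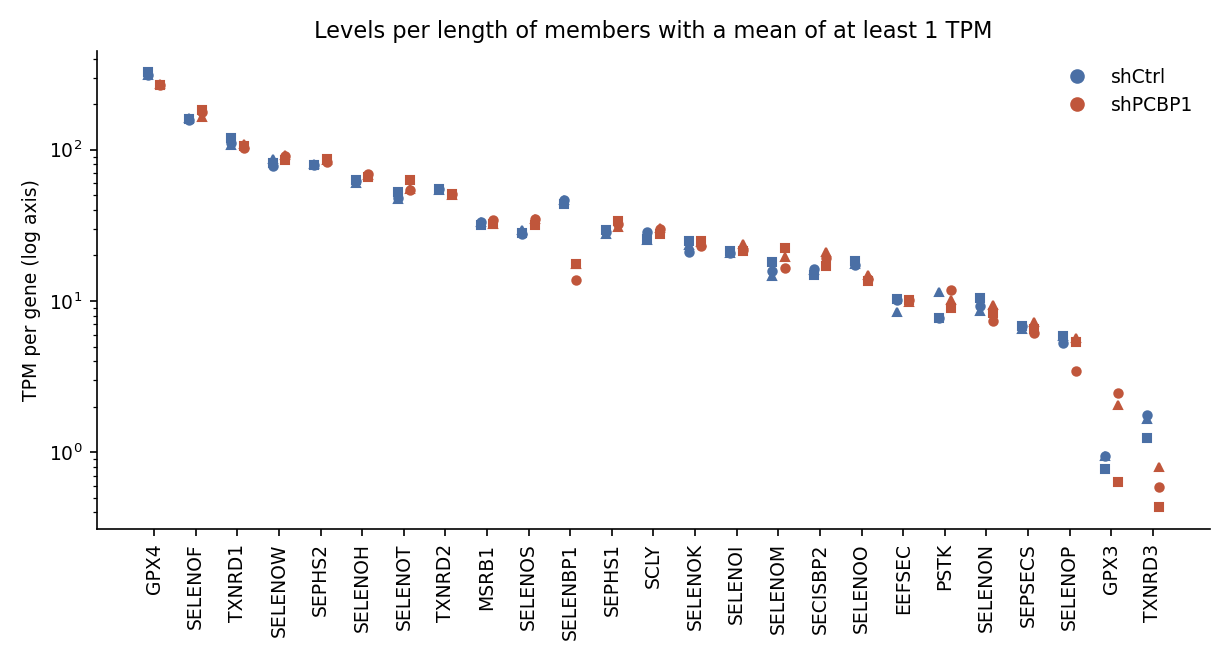
TPM per gene on a log axis for each member averaging at least 1 TPM, ordered by mean, with 1 point per library (circle, square and triangle for replicates 1, 2 and 3), shCtrl in blue and shPCBP1 in red. GPX4 stands highest at 316 TPM on average in shCtrl and 269 TPM in shPCBP1, and SELENBP1 shows the widest gap between the groups among members above 2 TPM.

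The peroxidases were represented by GPX4. GPX4 (ENSG00000167468.20, chr19:1103982-1106791 on the plus strand) held 14279.5, 14210.3 and 13927 normalized counts in shCtrl, against 12638, 12299 and 12428 in shPCBP1. Every shPCBP1 library lay below every shCtrl library, and the spread within each group was small. GPX4 fell by 0.18 on the log2 scale (SE 0.0363, DESeq2 adjusted p 5.92e-06), a ratio of 0.881 to shCtrl. Its TPM values were 313, 324 and 312 in shCtrl against 269, 267 and 272 in shPCBP1. The secreted peroxidase GPX3 averaged only 38.4 normalized counts, and its log2 fold change of 0.82 (SE 0.479) had a DESeq2 adjusted p of 0.198, with shPCBP1 replicate 2 inside the shCtrl range. GPX1, the cytosolic peroxidase, averaged 0.521 TPM in shCtrl and 0.303 TPM in shPCBP1 and received no adjusted p. GPX1 shares exons with another gene on the same strand, ENSG00000290318, which held 0.6 to 2.76 TPM, so its own level is uncertain. GPX2 averaged 5.22 normalized counts with no adjusted p, and GPX6 did not reach the summed count of 10 needed to enter the fit.

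All 3 thioredoxin reductases fell. TXNRD1, the cytosolic enzyme (ENSG00000198431.18, chr12:104215779-104350307 on the plus strand), held 25572, 24989.7 and 26006 normalized counts in shCtrl, against 22952, 23071 and 22841 in shPCBP1. TXNRD2, the mitochondrial enzyme, had 7052, 6920.4 and 6666 in shCtrl against 6437, 6337 and 6283 in shPCBP1. The groups did not overlap for either gene, and the falls were small beside their counts. TXNRD1 fell by 0.15 on the log2 scale (SE 0.033, DESeq2 adjusted p 3.33e-05) and TXNRD2 fell by 0.11 (SE 0.0452, DESeq2 adjusted p 0.038). Neither call held when average transcript length entered as an offset, with DESeq2 adjusted p 0.344 for TXNRD1 and 0.198 for TXNRD2, and the TXNRD2 call was also lost without shCtrl replicate 1 or 2 or shPCBP1 replicate 2 or 3, with adjusted p between 0.0741 and 0.149. TXNRD1 summed to 111, 119 and 107 TPM in shCtrl against 103, 106 and 109 TPM in shPCBP1, so on that scale the groups overlapped.

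TXNRD3, a thioredoxin and glutathione reductase best known from testis, showed the largest change among the 11 called genes. Its normalized counts were 233, 263 and 226 in shCtrl against 118, 95 and 161 in shPCBP1. The highest shPCBP1 library lay well below the lowest shCtrl library. TXNRD3 fell by 0.95 on the log2 scale (SE 0.237, DESeq2 adjusted p 0.000412), a 1.94-fold lower level. The gene was scarce, at 1.56 ± 0.276 TPM (SD, n = 3) in shCtrl and 0.606 ± 0.182 TPM in shPCBP1. Its protein-coding transcripts alone stood at 58.7% of their shCtrl TPM.

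Among the endoplasmic reticulum (ER) selenoproteins, 2 of 7 with an adjusted p rose and 0 fell, beside 17.7% and 13.5% of all genes. SELENOT, an ER oxidoreductase (ENSG00000198843.14, chr3:150602875-150630436 on the plus strand), held 6134, 6016 and 6179.6 normalized counts in shCtrl, against 7195, 7728 and 7275 in shPCBP1. SELENOS, a membrane protein of ER-associated degradation, had 2220.2, 2187 and 2274 in shCtrl against 2691, 2589 and 2678 in shPCBP1. For both genes all shPCBP1 libraries were above all shCtrl libraries. SELENOT rose by 0.28 on the log2 scale (SE 0.0465, DESeq2 adjusted p 5.75e-08), and SELENOS rose by 0.25 (SE 0.0624, DESeq2 adjusted p 0.00041). SELENOT overlaps exons of SERP1 on the opposite strand, and SERP1 rose by 0.10.

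The other 5 tested ER members were not called. SELENOF, which associates with the glycoprotein folding sensor UGGT, held 14492, 14229 and 14337 normalized counts in shCtrl, against 15815, 15834 and 14245 in shPCBP1. Here 2 shPCBP1 libraries were above the shCtrl range and replicate 3 was within it. The log2 fold change of SELENOF was 0.09 (DESeq2 adjusted p 0.104), and without shPCBP1 replicate 3 it was 0.14 with DESeq2 adjusted p 0.000966. With transcript length as an offset it was 0.15 and was called (DESeq2 adjusted p 0.0496). The log2 fold change was 0.28 (DESeq2 adjusted p 0.0814) for SELENOM and 0.04 (DESeq2 adjusted p 0.759) for SELENOK, a partner of the palmitoyltransferase ZDHHC6. It was 0.08 (DESeq2 adjusted p 0.113) for SELENOI, which makes phosphatidylethanolamine, and -0.15 (DESeq2 adjusted p 0.152) for SELENON, an ER calcium regulator. The SELENOM call appeared without shPCBP1 replicate 1 (DESeq2 adjusted p 0.049) and the SELENON call without shPCBP1 replicate 3 (log2 fold change -0.24, DESeq2 adjusted p 0.0139).

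Of the selenoproteins of nucleus, cytosol and mitochondria, SELENOO fell. SELENOO, a mitochondrial pseudokinase that attaches AMP to proteins, held 2573, 2702 and 2641 normalized counts in shCtrl, against 2134, 2069 and 2253 in shPCBP1. The groups were far apart beside their spread. SELENOO fell by 0.29 on the log2 scale (SE 0.0657, DESeq2 adjusted p 6.86e-05). SELENOH, a nucleolar oxidoreductase, had 4489, 4499 and 4604 in shCtrl against 5185, 4839.7 and 4811 in shPCBP1. SELENOH rose by 0.13 (SE 0.0518), with a DESeq2 adjusted p of 0.0471, close to the threshold. The call was lost with TMM scaling (DESeq2 adjusted p 0.0775), with edgeR's quasi-likelihood test (adjusted p 0.112) and with length offsets (DESeq2 adjusted p 0.0539). It was also lost with genes of a mean count over 50 and with protein-coding genes only (DESeq2 adjusted p 0.057 and 0.0936). Turning off DESeq2's low-count filtering and adding a block for replicate number each ended the call as well (DESeq2 adjusted p 0.0767 and 0.12). Leaving out any library but shPCBP1 replicate 3 lost it too (DESeq2 adjusted p 0.0561 to 0.208). SELENOW, a small thioredoxin-fold protein, and MSRB1, which repairs oxidized methionine, had log2 fold changes of 0.06 and 0.04 (DESeq2 adjusted p 0.432 and 0.682). SELENOV averaged 1.47 normalized counts with no adjusted p.

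Selenoproteins are often ranked by how well their mRNA holds up when selenium is scarce. The 3 listed as housekeeping, GPX4, TXNRD1 and TXNRD2, all fell, with a median log2 fold change of -0.15, although length offsets ended the call for TXNRD1 and TXNRD2. Of the 4 listed as stress-related, GPX1, SELENOW, SELENOH and MSRB1, 3 had an adjusted p, of which 1 rose and 2 were not called, with a median of 0.06. Beside these counts, 17.7% of all genes rose and 13.5% fell. The difference between these lists was not tested.

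Secreted and hormone-related members were low. SELENOP, the selenium carrier of plasma, averaged 5.68 TPM in shCtrl and 4.83 TPM in shPCBP1, and its log2 difference of -0.31 (SE 0.141) had a DESeq2 adjusted p of 0.0826. Its lowest library, shPCBP1 replicate 1, held 507 normalized counts against 757 and 742 in the others of that group. The deiodinase DIO1, which converts thyroid hormone, averaged 24.3 normalized counts with no adjusted p. DIO2 had 2 estimated counts over all 6 libraries and DIO3 had 0, so changes in them were not detectable at this depth. Several members share exon sequence with other genes. SELENOH and SELENON do so on the same strand with genes known only by identifier (at most 0.708 and 0.0401 TPM), and SELENOI, SELENOP, SELENOO, EEFSEC and PSTK overlap genes on the opposite strand, so their levels are uncertain if counting ignored strand.

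Of the 7 genes that make and insert Sec, SEPHS2 counted among them, 3 rose and 0 fell, beside 17.7% and 13.5% of all genes. SEPHS2, which makes the selenium donor selenophosphate and is itself a selenoprotein, held 13111, 12778 and 13528 normalized counts in shCtrl, against 14281, 14459.7 and 14343 in shPCBP1. SEPHS2 rose by 0.13 on the log2 scale (SE 0.0378, DESeq2 adjusted p 0.00374). SECISBP2, the SECIS-binding protein, had 3116, 2942 and 3125 in shCtrl against 3608, 3489 and 3899 in shPCBP1. SECISBP2 rose by 0.26 (SE 0.0619, DESeq2 adjusted p 0.000231).

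SCLY, which releases selenium from free selenocysteine for reuse, had 2826, 2729.9 and 2775 in shCtrl against 3548, 3432 and 3568 in shPCBP1. In each of these machinery genes the groups did not overlap in normalized count. SCLY rose by 0.34 (SE 0.0565, DESeq2 adjusted p 3.71e-08). With transcript length as an offset its rise was 0.18 (DESeq2 adjusted p 0.0984) and was not called. SCLY summed to 28.5, 25.6 and 25.2 TPM in shCtrl against 29.8, 27.9 and 30.5 TPM in shPCBP1, so on that scale the groups overlapped. SCLY shares exons with the read-through gene UBE2F-SCLY on the same strand, which held at most 0.341 TPM.

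The remaining 4 machinery genes did not pass. SEPHS1, a homologue of SEPHS2 that does not make selenophosphate, had a log2 fold change of 0.09 (DESeq2 adjusted p 0.134) and was called with transcript length as an offset (0.20, DESeq2 adjusted p 0.0106). EEFSEC, the Sec elongation factor, had 0.11 (DESeq2 adjusted p 0.374), and PSTK, the kinase that acts on the seryl form of the Sec tRNA, had 0.13 (DESeq2 adjusted p 0.546). SEPSECS, which completes the tRNA-bound synthesis of Sec, had -0.16 (DESeq2 adjusted p 0.147) and was called without shPCBP1 replicate 3 (-0.26, DESeq2 adjusted p 0.0045).

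**Figure D2:**
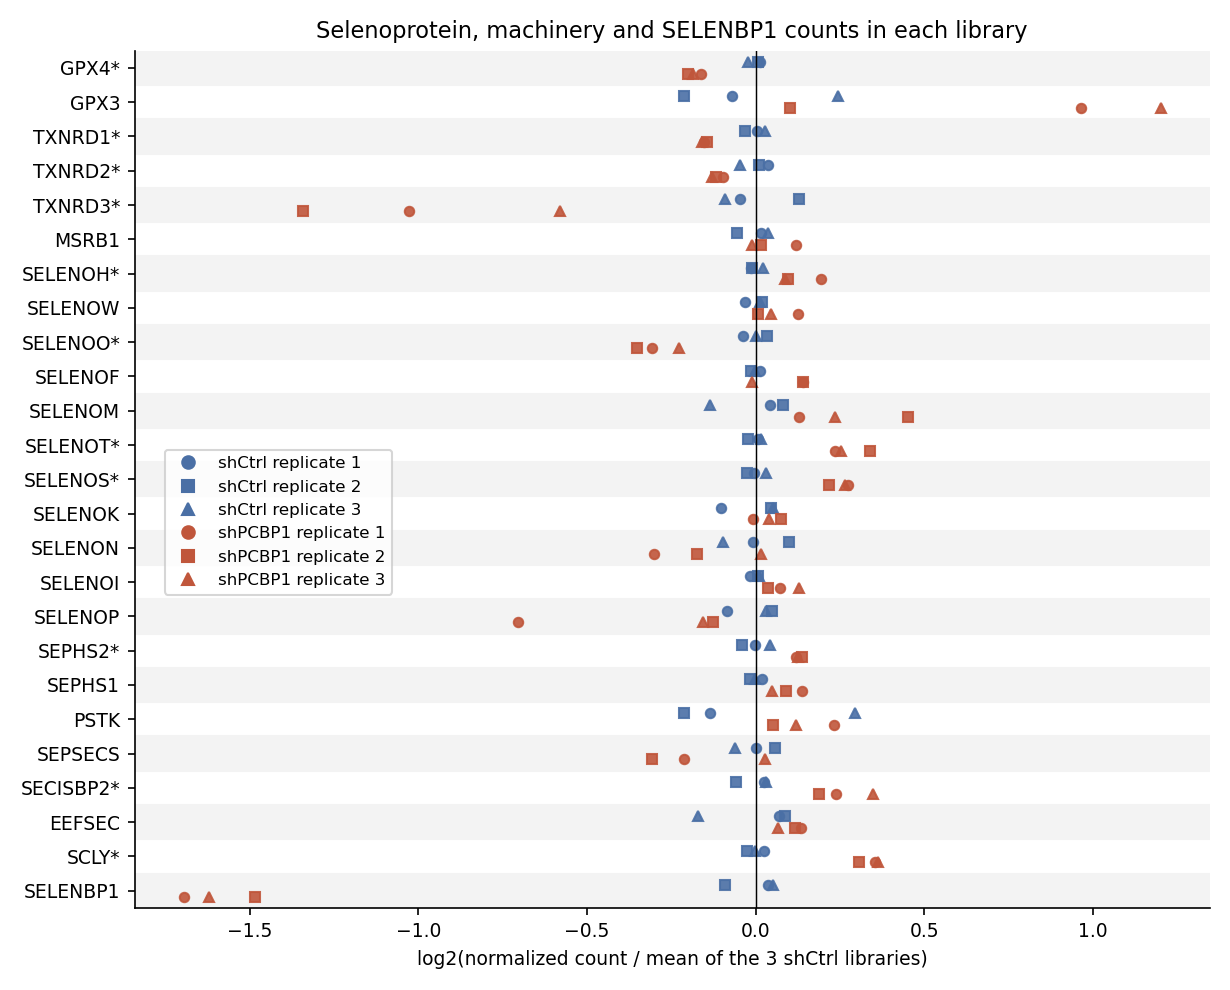
Log2 ratio of normalized count to the shCtrl mean, 1 point per library, for the 24 members with an adjusted p and SELENBP1, with shCtrl in blue and shPCBP1 in red and asterisks on the 11 called genes. Most points lie within 0.4 of zero, TXNRD3 and SELENBP1 lie well to the left in all shPCBP1 libraries, and GPX3 spreads widely within shPCBP1.

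SELENBP1, the gene chosen for its fall (ENSG00000143416.21, chr1:151364304-151372707 on the minus strand), held 5882, 5387 and 5946 normalized counts in shCtrl, against 1771, 2051 and 1864 in shPCBP1. It was lower by a log2 fold change of -1.60 (SE 0.0667), a 3.03-fold lower level. Its TPM values were 46.7, 43.8 and 46.8 in shCtrl against 13.8, 17.5 and 17.5 in shPCBP1.

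SELENBP1 transcripts of different classes stood at unequal fractions of their shCtrl level. Its 6 protein-coding transcripts, of 19 annotated, summed to 30.9, 29.9 and 32 TPM in shCtrl against 6.96, 7.91 and 8.04 TPM in shPCBP1, which is 24.7% of the shCtrl mean. The 6 retained-intron transcripts summed to 14.2, 13.5 and 13.9 TPM in shCtrl against 6.38, 9.06 and 8.97 TPM in shPCBP1, which is 58.7%. The retained-intron share of SELENBP1 TPM was therefore 30.3% ± 0.571 (SD, n = 3) in shCtrl and 49.8% ± 3.03 in shPCBP1, and the groups did not overlap. The main coding transcript SELENBP1-201 held 60.2%, 60.7% and 59.5% of the gene in shCtrl against 42.3%, 41.3% and 37.7% in shPCBP1. The retained-intron transcript SELENBP1-213 held 3.35%, 6.74% and 3.03% in shCtrl against 4.8%, 16.8% and 22.1% in shPCBP1, so its groups overlapped, while SELENBP1-214 was 6.78% ± 1.06 against 12.3% ± 4.17 without overlap. SELENBP1-218, the most abundant retained-intron transcript in shCtrl, averaged 6.06 TPM there and 2.04 TPM in shPCBP1. Its share was 13.2% ± 0.672 in shCtrl and 12.6% ± 0.725 in shPCBP1 with overlap. The rise in retained-intron share was therefore not seen in every transcript of the class. These are estimates from the same contrast that selected the gene, so they carry no test.

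**Figure D3:**
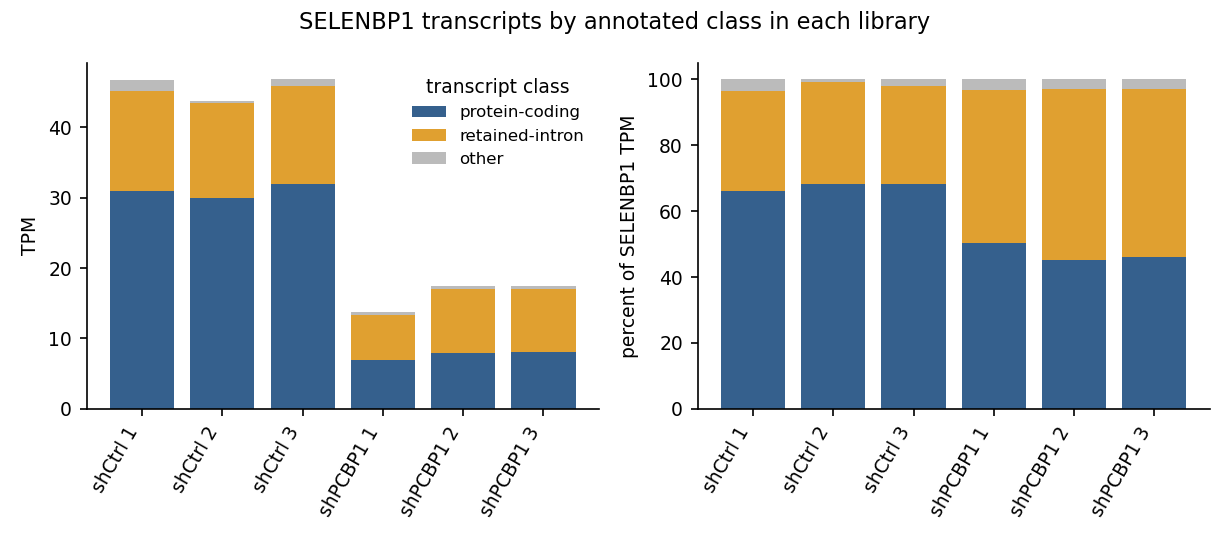
SELENBP1 transcripts summed by annotated class in each library, as TPM (left) and as percent of the gene's TPM (right), with protein-coding in dark blue, retained-intron in orange and other classes in grey. Protein-coding TPM is between 29.9 and 32 in shCtrl and between 6.96 and 8.04 in shPCBP1, while the retained-intron share averages 30.3% and 49.8%.

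Of the 6 genes nearest to SELENBP1 on chromosome 1, 4 rose, beside 17.7% of all genes, and 0 were called lower, beside 13.5%. Of the 3 nearest protein-coding genes on each side, ZNF687, PI4KB, PSMB4 and POGZ rose by 0.12 to 0.23 on the log2 scale, and RFX5 and CGN were not called (log2 fold changes 0.11 and -0.23, DESeq2 adjusted p 0.171 and 0.608). With transcript length as an offset the PI4KB and PSMB4 calls were lost (DESeq2 adjusted p 0.573 and 0.0644).

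Transcript shares of the other members were tested with limma on the log2 ratio of a transcript's TPM to that of the rest of its gene. A call needed a limma adjusted p under 0.05 together with more than 5 percentage points between the group means, which 0.235% of all 54781 transcripts reached. Of 101 transcripts in 18 member genes other than SELENBP1, 0 were called and the lowest limma adjusted p was 0.164. An unadjusted p under 0.05 was reached by 16.8% of these 101, beside 12.8% of all transcripts tested. On simulated data the share test missed differences of the size seen here, so the count of 0 says nothing about whether member shares differed. Among the called genes the widest differences were in SCLY-201, which held 30.5% ± 2.6 (SD, n = 3) of SCLY in shCtrl and 40.9% ± 2.34 in shPCBP1 (limma adjusted p 0.287), SECISBP2-203 with 19% and 26.2% (limma adjusted p 0.494) and SELENOO-201 with 63.7% and 57.6% (limma adjusted p 0.59). In the other called genes with tested transcripts the widest difference was 4.72 points for TXNRD1-202, -3.24 for SELENOT-201, -2.87 for TXNRD2-201, 1.95 for SELENOH-202, -1.59 for SELENOS-207 and 0.982 for GPX4-210.

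The share of each gene's TPM from transcripts with an annotated Sec codon was also summed. It was 98.2% ± 0.587 (SD, n = 3) for GPX4 in shCtrl and 98.8% ± 0.549 in shPCBP1, so nearly all GPX4 RNA was assigned to transcripts that encode the selenoenzyme. The share was 77.2% and 76.5% for TXNRD1, 68.9% and 70.2% for TXNRD2 and 42.5% and 45.5% for SELENOT, each with overlapping groups. In SELENOO a single transcript carried the Sec codon, at 63.7% ± 4.98 in shCtrl and 57.6% ± 4.19 in shPCBP1 with overlap. The TPM of that transcript stood at 72.1% of shCtrl. For SELENOH the share was 95.5% ± 0.263 and 96.1% ± 0.0607 without overlap, and for the scarce TXNRD3 it was 68.4% ± 27.4 and 99% ± 1.67 with overlap. Protein-coding transcripts made up 82.5% ± 2.32 of TXNRD2 in shCtrl and 76.9% ± 1.48 in shPCBP1, and 84.8% ± 1.21 and 89.6% ± 2.53 of SECISBP2, both without overlap. Among the other machinery genes they made up 97.4% of SEPHS1, 98.8% of EEFSEC and 71.6% of SCLY in shCtrl, but 44.1% ± 5.98 of SEPSECS and 19.9% ± 3.43 of PSTK, so the gene levels of these last members are not levels of coding mRNA. None of these class shares was tested, and how often the groups separate on class shares over all genes was not counted.

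Of 10 further genes of Sec insertion and selenium supply with an adjusted p, 4 rose, beside 17.7% of all genes, and 1 fell, beside 13.5%. The other 5 were not called, and the median log2 fold change was 0.07. ALKBH8, which modifies the wobble base of the Sec tRNA, rose by 0.49 (SE 0.0729, DESeq2 adjusted p 4.34e-10).

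Genes that work with the thioredoxin and glutathione selenoenzymes went both ways. Of 22 genes, 5 rose, 6 fell and 11 were not called, with a median of 0.05, beside 17.7% of all genes that rose and 13.5% that fell. TXNIP, the thioredoxin inhibitor, fell by 0.54 on the log2 scale (SE 0.126, DESeq2 adjusted p 0.000169). PRDX5, a peroxiredoxin, fell by 0.41 (SE 0.0554, DESeq2 adjusted p 3.19e-12), and the glutaredoxin GLRX fell by 0.36 (SE 0.148, DESeq2 adjusted p 0.0456). The GLRX call was lost with edgeR (adjusted p 0.0765) and without any library other than shCtrl replicate 2 (DESeq2 adjusted p 0.0627 to 0.161).

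Cysteine homologues carry cysteine where the selenoprotein has Sec. Over all genes tested, 17.7% rose and 13.5% fell. Of 3 with an adjusted p, MSRB2, the mitochondrial homologue of MSRB1, fell by 0.37 (SE 0.138, DESeq2 adjusted p 0.0246), and 2 were not called. The MSRB2 call was lost with transcript length as an offset (DESeq2 adjusted p 0.348) and without shCtrl replicate 1 or 2 or shPCBP1 replicate 1 or 2 (0.0628 to 0.141).

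Each list in this paragraph stands beside 17.7% of all genes that rose and 13.5% that fell. Of 8 ER quality control genes that work with SELENOS, SELENOK or SELENOF, 1 rose, 1 fell and 6 were not called. In the synthesis of phosphatidylethanolamine and phosphatidylcholine, where SELENOI acts, 3 of 7 rose and 2 fell. The rise of CHKA, a choline kinase, was not called under 11 alternatives (adjusted p 0.0638 to 0.276), and ETNK1, an ethanolamine kinase, went from -0.20 to 0.03 with transcript length as an offset. CHKB, the other choline kinase, fell by 0.74 (SE 0.134, DESeq2 adjusted p 4.51e-07), and it shares exons with the read-through gene CHKB-CPT1B (log2 fold change -0.35, DESeq2 adjusted p 0.251), so reads may be split between them. Of 6 genes of sulfide and sulfur oxidation, the pathway fed by the sulfide that SELENBP1 releases from methanethiol, 0 rose, 2 fell and 4 were not called. TST, a mitochondrial sulfurtransferase, fell by 0.63 (SE 0.111, DESeq2 adjusted p 2.24e-07), and it overlaps MPST, the other gene that fell, on the opposite strand.

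**Figure D4:**
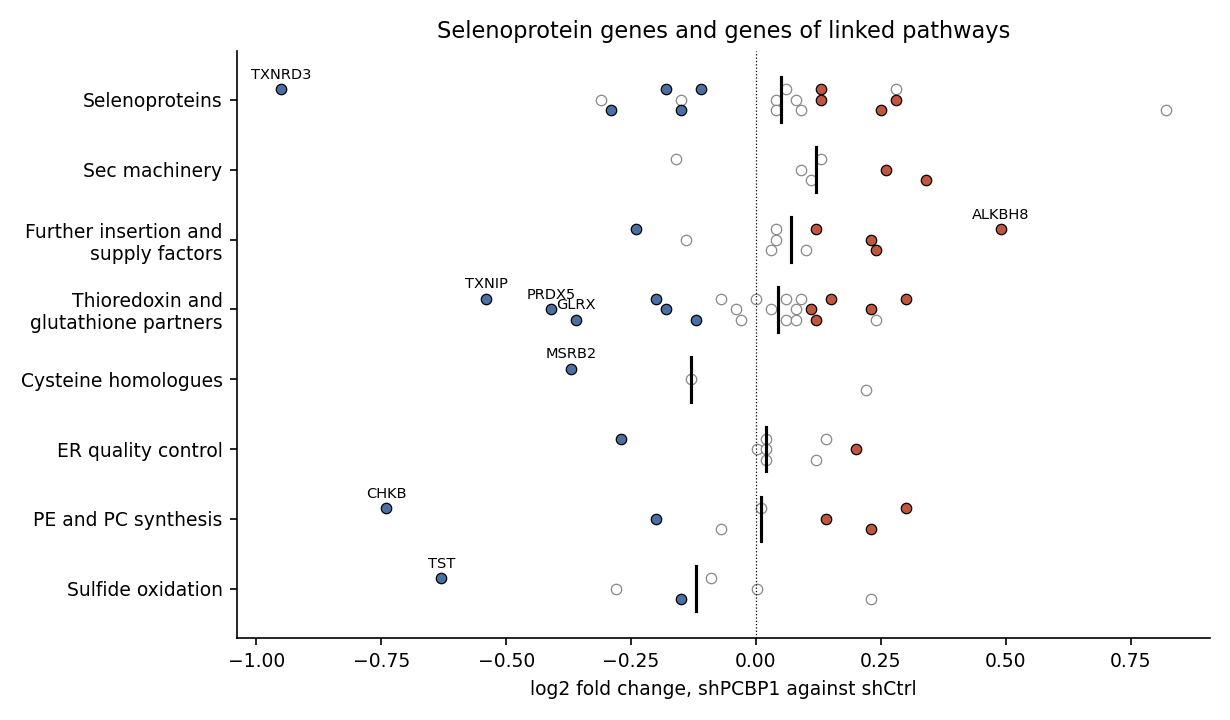
Log2 fold change of shPCBP1 against shCtrl for each gene with an adjusted p in the selenoprotein, machinery and linked pathway lists, filled where called (red higher, blue lower), with a black bar at the median of each list. The medians lie between -0.13 and 0.12, and TXNRD3, CHKB, TST and TXNIP are the called genes furthest below zero.

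Markers of other cell states were read beside these values, and their counts stand beside 17.7% of all genes that rose and 13.5% that fell. Of 9 K562 and erythroid markers 2 rose and 1 fell, and of 8 late erythroid markers 1 rose and AHSP fell by 0.59 (SE 0.206, DESeq2 adjusted p 0.0161), a call lost without shCtrl replicate 1 or 3 or shPCBP1 replicate 1 or 2 (DESeq2 adjusted p 0.0641 to 0.119). The summed late erythroid level was 394 to 499 TPM in shCtrl and 426 to 433 TPM in shPCBP1. The 6 megakaryocyte markers, with GP9 at 0, summed to 44 to 54.6 TPM in shCtrl and 29.3 to 30 TPM in shPCBP1. Of the 4 tested, ITGA2B fell by 1.91 (SE 0.274, DESeq2 adjusted p 9.05e-11) and GP6 fell by 0.57, while ITGB3 rose by 0.45 (DESeq2 adjusted p 5.77e-13 for GP6 and 1.84e-05 for ITGB3). GP6 and ITGB3 each share exons with another annotated gene on the same strand, so reads may be split between them. Lymphoid, monocyte and fibroblast markers summed to at most 3.28, 53.1 and 7 TPM in any library, and COL1A1 was the single gene of these called, with a log2 fold change of -0.31, a call lost without shCtrl replicate 2 or 3 or shPCBP1 replicate 1 or 2 (DESeq2 adjusted p 0.064 to 0.173). Whether these shifts play a part in the selenoprotein values was not tested, and in bulk RNA a change in cell state and a change in RNA per cell cannot be told apart.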

How the data were processed

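Poly-A RNA of K562 cells was measured in 6 libraries, 3 shCtrl and 3 shPCBP1, grouped by their labels. Salmon 1.10.2 on hg38, named in the submitters' processing notes, was used by the authors, and the deposited estimated counts per transcript are unnormalized and can be fractional. Deposited TPM values were scaled by the authors' software for effective length and library total. The annotation behind the Salmon index and its strand setting are not given in the sources used here. Transcripts were matched to GENCODE release 44, which left 0.1359% to 0.1474% of a library's counts unmatched. All 32 genes matched.

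Gene counts were made by summing transcripts and rounding. The 28848 genes whose counts added up to 10 or more over the libraries were fitted with DESeq2 1.42.0 (Wald test, two-sided, group only, median-of-ratios scaling, unshrunken fold changes), with Benjamini-Hochberg adjustment over all genes. Missing adjusted p-values were kept missing. Transcript shares were tested with limma 3.58.1 with a pseudocount of 0.1 TPM, on transcripts of at least 0.5 TPM in genes of at least 1 TPM, with the trend on gene TPM. On simulated data with 200 genes changed by 1.25, 1.5 or 2 fold, the gene test recovered 176, 199 and 200. It also called 30, 39 and 36 unchanged genes, so some calls at this threshold may be false. The changed genes were drawn only from genes with high mean counts. Recovery was therefore not tried at the lower counts of TXNRD3, PSTK, SELENOM, SELENOP and GPX3. Changes as small as those of most members were not tried. The share test missed nearly all simulated share differences except very wide ones. Lists are described by counts and medians alone. Precision is lowest for members with few counts, and p-values cover the spread of 3 libraries a group.

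The members and lists were chosen with earlier results of these data known. Values in every library were given for each called member, SELENBP1 and the 3 most abundant members. Genes of other lists were named at an adjusted p under 0.05 and an absolute log2 fold change of at least 0.3, at most 5 a list. Alternatives were edgeR 4.0.16, TMM scaling, length offsets, count filters, outlier handling, protein-coding genes, a replicate block, other share settings and leaving out each library. Tools ran under R 4.3.3 and Python 3.11.15.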

Additional observations from a re-analysis of the deposited data

How the results depend on the processing

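Among 213 fold changes of the 24 tested members other than SELENBP1, recomputed under settings other than leaving out a library, 199 kept their direction and side of the threshold, 12 lost the call, 2 gained it and 0 reversed. Of 786 such values for genes of the other lists and neighbours, 743 kept both, 27 lost a call, 14 gained it and 2 reversed. Counts of called genes stayed within 1.5 times except for the members that fell and for the fuller rule. The fuller rule took 148 genes with the replicate block and 140 to 249 on leaving out a library. Without shCtrl replicate 2 it took 140 and without shPCBP1 replicate 1 it took 141, beside 235. Members that fell numbered 3 in place of 5 with transcript length offsets, a setting in which the SELENBP1 log2 fold change was -1.48, ETNK1 stood at 0.03 in place of -0.20 and SECISBP2L at 0.09 in place of -0.24. The median of the selenoprotein list was 0.04 with edgeR or TMM scaling, 0.03 with genes of a mean count over 50 or protein-coding genes, 0.09 with length offsets and 0.04 to 0.07 on leaving out a library. The machinery median was 0.19 with length offsets and 0.09 to 0.18 on leaving out a library. Deviations from the group means were almost uncorrelated between libraries that share a replicate number (0.0387, 0.016 and -0.0331). No pairing by number showed in these values, which does not settle whether same-numbered libraries were prepared together. The replicate block left 9 members called, in place of 11, and 4297 genes, in place of 5332. Called transcript shares numbered 215 with a pseudocount of 1 TPM, 248 with transcripts of at least 2 TPM, 75 with a difference over 10 points, 0 with the replicate block and 253 with the trend on transcript TPM, a setting chosen after seeing the data, in place of 129. In the pseudocount, 2 TPM and transcript trend settings 1 member transcript was called in place of 0. It belongs to SELENBP1, which was selected on this contrast, and supports nothing. Restricting to protein-coding transcripts moved the summed selenoprotein level in shCtrl from 1075 to 1000.1 TPM. The cause of these shifts was not tested. Depth limits GPX1, GPX2, GPX6, the deiodinases and SELENOV, for which no call could be made.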
